A study of Mus musculus with 24 samples.

Results

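ABC, SLCO and SLC22 genes encode carriers that move sterols, drugs, conjugated hormones, prostaglandins, carnitine and organic ions across membranes. Members were taken by gene name: every gene of the deposited table whose symbol starts with Abca to Abcg, Slco or Slc22a followed by a number, with Slc22a18 left out. This gave 90 genes of 55401, namely 16 Abca, 10 Abcb, 10 Abcc, 4 Abcd, 1 Abce, 3 Abcf, 6 Abcg, 15 Slco and 25 Slc22a genes. The annotation (GENCODE M21, GRCm38) lists 88 of them as protein coding and 2 as pseudogenes of different kinds. *Tap1*, *Tap2* and *Cftr* are ABC proteins by sequence but do not carry an Abc symbol, so they are not among the 90.

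PolyA RNA was sequenced from the maternal-fetal interface (MFI) of mice at 4 gestation days (gd), which were gd10.5, gd14.5 and, closer to birth, gd16.5 and gd19.5. Each stage had 3 libraries of wild-type (WT) and 3 of *C1qtnf6*-KO tissue, which gives 24 libraries in 8 groups. All mice were on a C57BL/6 background and received no treatment. The KO mice were homozygous for a CRISPR-Cas9 deletion of *C1qtnf6*, the gene of the secreted protein CTRP6, in all of their cells. The age of the dams, the litter and the sequencing run of a library are not given in the sources used here, so p-values measure the spread between these libraries, which may be technical.

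Total counts per library lay between 20975717 and 37383108, and the 90 transporters together took 0.229% to 0.331% of them. *C1qtnf6* was at 64.7 to 168 CPM (counts scaled to a library total of 1000000) in the 12 WT libraries and at 0.0340 to 2.05 CPM in the 12 KO libraries. Trophoblast and decidual markers were found in every library, except that the syncytiotrophoblast gene *Synb* had at most 0.0773 CPM. Markers of yolk sac endoderm (*Afp*, *Apoa1* and 11 others) set libraries apart: they summed to 1375 to 23156 CPM in 7 libraries and to 40.8 to 506 CPM in the other 17. The 7 were WT gd10.5 replicate 1, all 3 KO gd10.5 libraries, WT gd16.5 replicate 1, and KO gd16.5 replicates 1 and 2. KO gd10.5 replicate 2 also stood apart in its spongiotrophoblast and glycogen cell markers, which summed to 11783 CPM against 791 to 2051 CPM in the other gd10.5 libraries. In whole tissue, fewer cells of a type and less RNA per cell cannot be told apart.

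The placenta feeds the fetus and also shields it. ABC proteins spend ATP to push substrates out of a cell, so those on the maternal-facing membrane of the syncytiotrophoblast return drugs and toxins to the mother, while others load cholesterol onto lipoproteins. SLCO (organic anion transporting polypeptides) and SLC22 (organic cation, carnitine and organic anion transporters) proteins need no ATP and mostly take substrates up. A few members of the ABC group, the Abce and Abcf proteins, have the ATP-binding domains but no membrane part and work in translation.

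Levels were set side by side per length, as RPKM (CPM per 1000 bases of exon). *Slc22a5*, the high-affinity carnitine transporter, had the highest mean over the 24 libraries at 49.7 RPKM. It was followed by the ribosome-associated *Abcf1* at 35.5, the prostaglandin transporter *Slco2a1* at 35.4, the ribosome recycling factor *Abce1* at 28.1, *Slco4a1*, a carrier of thyroid hormones, at 27.1, *Abcf2* at 23.9 and the cholesterol exporter *Abca1* at 20.5 RPKM. *Abcc5* had 15.3, *Slc22a3* 10.7, *Abcg2* 8.87, *Abcg1* 8.59, *Abcb1b* 8.23 and *Abcb1a* 7.14 RPKM. The order changed between stages. In WT at gd10.5, *Slc22a5* had 57.4 ± 5.92 RPKM (SD, n = 3) and *Slco2a1* 11.7 ± 2.63. At gd16.5 the order was *Slco2a1* at 54.1 ± 9.21, *Abcf1* at 45.4 ± 1.65, *Slc22a5* at 44.9 ± 1.38 and *Slco4a1* at 40.1 ± 6.85 RPKM, and neighbours in this order did not differ beyond their spread.

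At the other end, 15 members had at most 3 counts in every library. They were *Abca15*, *Slc22a12*, *Slc22a16*, *Slc22a19*, *Slc22a20*, *Slc22a22*, *Slc22a26*, *Slc22a27*, *Slc22a28*, *Slc22a29*, *Slc22a30*, *Slco1a1*, *Slco6b1*, *Slco6c1* and *Slco6d1*. Of these, *Slc22a16*, *Slc22a28*, *Slco6b1* and *Slco6d1* had no count at all. A count of 3 corresponds to 0.0773 to 0.149 CPM, depending on the scaled size of the library, so lower levels were not detectable at this depth. *Slco1a4*, a carrier known from the blood-brain barrier, had 0 counts in all 6 gd10.5 libraries and 0 to 9 counts in the later ones. Reads that map to several places were left out by the counting, which can lower the counts of close copies: *Slc22a27* and *Slc22a29* share 96.8% of their bases over 2088, and *Slc22a28* and *Slc22a30* 98.8% over 2005. By contrast, 52 members had more than 3 counts in all 24 libraries.

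Changes between stages were tested within each genotype with the quasi-likelihood test of edgeR. A gene counted as changed with a Benjamini-Hochberg adjusted p under 0.05 and a log2 fold change over 1 in either direction. That second condition is the fold threshold. Of the 60 members that passed the expression filter in WT, 26 changed from gd10.5 to gd14.5, beside 22.2% of all genes tested. Of these, 16 rose (10.7% of all genes did) and 10 fell (11.6%). From gd14.5 to gd16.5, 11 members changed (5.6% of all genes), 9 of them up (3.04%) and 2 down (2.55%). The 2 were *Abcg4*, whose call held in 6 of 19 alternative settings, and *Slc22a13b*, whose call held in 18 of 19. From gd16.5 to gd19.5, 1 member changed, upwards (2.14% of all genes changed, 1.2% upwards). Over the 4 stages together, 31 members changed (35.9% of all genes). Members that pass the filter through 1 stage alone are more likely to differ between stages, so these counts are a description.

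The subfamilies did not move as blocks. At the first WT step, 6 of 14 tested Abca genes rose and 3 fell, 2 of 9 Abcb genes rose and 1 fell, 1 of 9 Abcc genes rose and 3 fell, 1 of 4 Abcd genes rose and none fell, 1 of 4 Abcg genes rose and 2 fell, 3 of 10 Slc22a genes rose and none fell, and 2 of 6 Slco genes rose and 1 fell. None of the Abce and Abcf genes passed the fold threshold at any WT step. The median log2 fold change of the first WT step was 0.45 over the Abca, 0.065 over the Abcb, -0.93 over the Abcc, 0.39 over the Abcd, -0.70 over the Abcg, 0.40 over the Slc22a and 0.38 over the Slco genes tested.

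The KO libraries, which are other samples, gave the same steps a second time. There, 25 of 65 tested members changed from gd10.5 to gd14.5 (18.7% of all genes), 13 changed from gd14.5 to gd16.5 (7.53%), none changed from gd16.5 to gd19.5 (0.693%), and 35 changed over the 4 stages (34%). None of the 65 passed the test at the last KO step, while 23 had an unadjusted p under 0.05 (18.3% of all genes) and DESeq2 called 5. Among the 60 members tested in both genotypes, 17 changed at the first step in both, always in the same direction. These were 65.4% of the members called in WT and 81% of those called in KO. Over all genes the shares were 73.8% and 85.5%. At the second step 7 members changed in both, which were 63.6% of the WT calls and 70% of the KO calls, beside 69% and 52.6% over all genes.

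**Figure D1:**
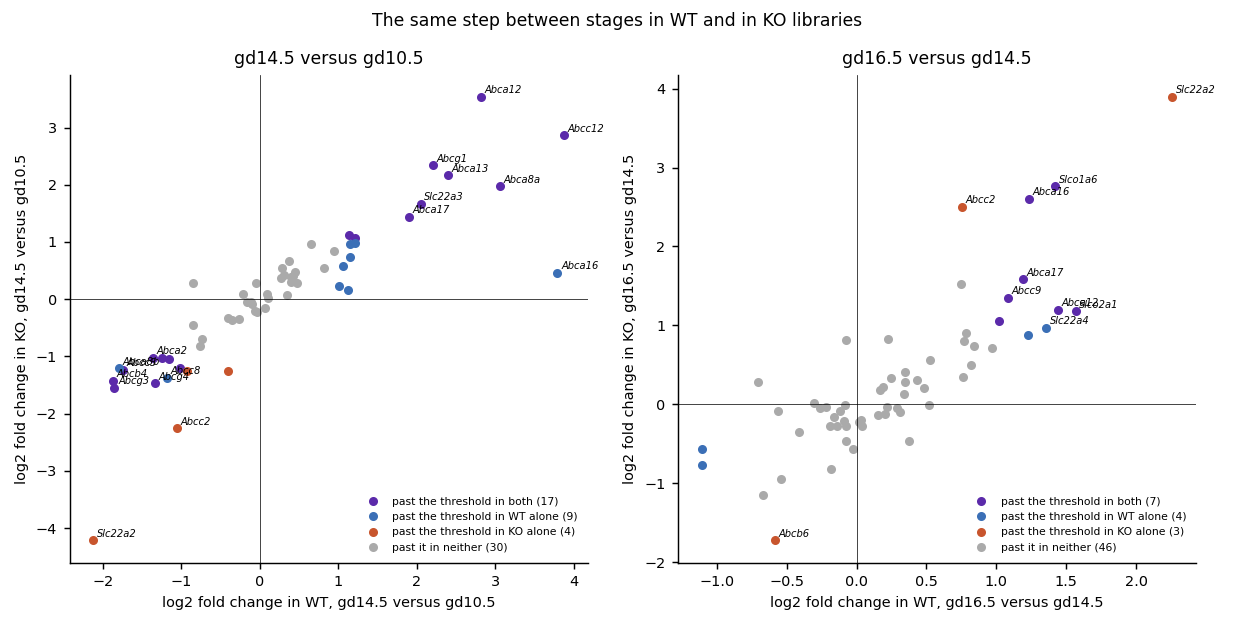
Each point is a transporter tested in both genotypes, placed by its log2 fold change between 2 stages in WT (horizontal) and KO libraries (vertical); colour shows in which genotype it passed the threshold, and the most distant called points carry names. At the first step 17 points passed in both genotypes and 30 in neither, and *Slc22a2* and *Abcc2* passed in KO alone.

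Among the sterol and phospholipid carriers, *Abcg1*, which hands cholesterol to high-density lipoprotein, rose at both of the first 2 steps. Its 3 WT libraries were at 9.15, 9.07 and 7.74 CPM at gd10.5, at 32.5, 49.7 and 37.6 CPM at gd14.5, at 85.0, 69.9 and 86.8 CPM at gd16.5 and at 94.5, 102 and 101 CPM at gd19.5. The KO libraries followed at 6.20, 12.4 and 8.68 CPM, then 40.4, 41.5 and 56.3, then 96.5, 101 and 89.3, then 110, 135 and 122. Every library lay above those of the stage before in its genotype, though by little from gd16.5 to gd19.5. The log2 fold change of *Abcg1* was 2.21 ± 0.14 (SE, adjusted p = 1.03e-07) in WT and 2.34 ± 0.21 (adjusted p = 4.65e-05) in KO at the first step. At the second it was 1.02 ± 0.13 (adjusted p = 0.000201) and 1.06 ± 0.20 (adjusted p = 0.00564). That second WT value lay just over the fold threshold, and the call was lost in 6 alternative settings, namely with the yolk sac marker sum in the fit, without the marker-rich libraries, and without WT gd14.5 replicate 1 or 3 or WT gd16.5 replicate 1 or 3. The second KO call was lost without KO gd14.5 replicate 1 (0.97) or 2 (0.98), and with the marker sum in the fit.

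*Abca1*, which starts the loading of lipid-free apolipoprotein A1, was high from the beginning. In WT it was at 184, 178 and 138 CPM at gd10.5, 139, 182 and 140 CPM at gd14.5, 263, 289 and 344 CPM at gd16.5 and 302, 252 and 238 CPM at gd19.5. The 2 later stages thus lay above the 2 earlier ones in every WT library. The gd16.5 difference had a log2 fold change of 0.97 ± 0.15 (adjusted p = 0.000549) in WT and 0.72 ± 0.17 (adjusted p = 0.0167) in KO, both under the fold threshold. *Abca3*, a phospholipid carrier of lamellar bodies, had 40.8, 28.4 and 34.4 CPM in WT at gd10.5, 61.0, 66.3 and 54.1 CPM at gd14.5 and 99.2, 101 and 119 CPM at gd16.5. Its range over the WT stages was 1.64 on the log2 scale (adjusted p = 6.17e-07), although no single step passed the fold threshold. An antisense gene shares 20.2% of the exon bases of *Abca3*, and counting ignored the strand, so their reads cannot be told apart. *Abca5* stayed between 30.7 and 53.0 CPM in all 24 libraries and passed no test between stages.

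Several Abca genes with low counts also changed. *Abca13*, the longest Abca protein, had 0.653, 0.836 and 0.380 CPM in WT at gd10.5, 3.39, 4.03 and 2.73 CPM at gd14.5, 5.45, 4.11 and 7.88 CPM at gd16.5 and 13.7, 16.6 and 26.5 CPM at gd19.5. It rose at the first step (log2 fold change 2.40 ± 0.35, adjusted p = 8.23e-05) and was the 1 member that changed from gd16.5 to gd19.5 in WT (1.71 ± 0.28, adjusted p = 0.00399). The KO value of that last step was 1.55 ± 0.40 (adjusted p = 0.0758). *Abca17*, a relative of *Abca3*, went from 0.344, 0.378 and 0.465 CPM to 1.21, 1.63 and 1.60 and then to 3.26, 3.27 and 3.55 CPM in WT, with calls at both steps in both genotypes. *Abca8a* rose from 0.103, 0.189 and 0.127 CPM to 1.26, 1.19 and 1.22 CPM in WT (3.06 ± 0.29, adjusted p = 2.05e-06), while its neighbour *Abca8b* fell from 1.99, 1.83 and 0.846 to 0.474, 0.552 and 0.294 CPM (-1.79 ± 0.48, adjusted p = 0.00666). Both lie in a run of 5 Abca genes at chr11:109932190-110337716 (GRCm38), where *Abca9* rose and *Abca6* fell at the same step. *Abca12*, a ceramide carrier of the skin, had 0, 3 and 2 counts in WT at gd10.5 and 12, 26 and 4 at gd14.5. *Abca16* had 1, 0 and 0 counts and then 6, 12 and 3, so no fold is given for either. Both were called at the second WT step, but the call for *Abca12* was lost in 4 alternative settings and that for *Abca16* in 12. *Abca2*, found in lipid-rich cells of the nervous system, fell from 35.0, 42.0 and 31.7 to 11.9, 16.1 and 14.2 CPM in WT (-1.36 ± 0.25, adjusted p = 0.000522).

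The Abcg genes besides *Abcg1* were low or stable. *Abcg2*, the breast cancer resistance protein that exports drugs, urate and porphyrins from the syncytiotrophoblast, was at 96.0, 91.5 and 61.9 CPM in WT at gd10.5, 84.2, 70.7 and 83.0 CPM at gd14.5, 58.0, 57.7 and 44.5 CPM at gd16.5 and 54.9, 59.5 and 76.4 CPM at gd19.5. The gd16.5 libraries lay below those of gd14.5, with a log2 fold change of -0.56 ± 0.17 (adjusted p = 0.031) that did not reach the fold threshold. In KO the same step had -0.09 ± 0.16 (adjusted p = 0.742), and the interaction test reported further on called no member. *Abcg3* fell at the first step in WT from 2.89, 4.10 and 1.86 to 1.05, 0.773 and 0.589 CPM, and *Abcg4*, a close relative of *Abcg1*, from 1.79, 2.29 and 2.83 to 1.42, 0.608 and 0.631 CPM. The sterol exporters of liver and gut, *Abcg5* and *Abcg8*, had at most 8 counts and 6 counts in any library.

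**Figure D2:**
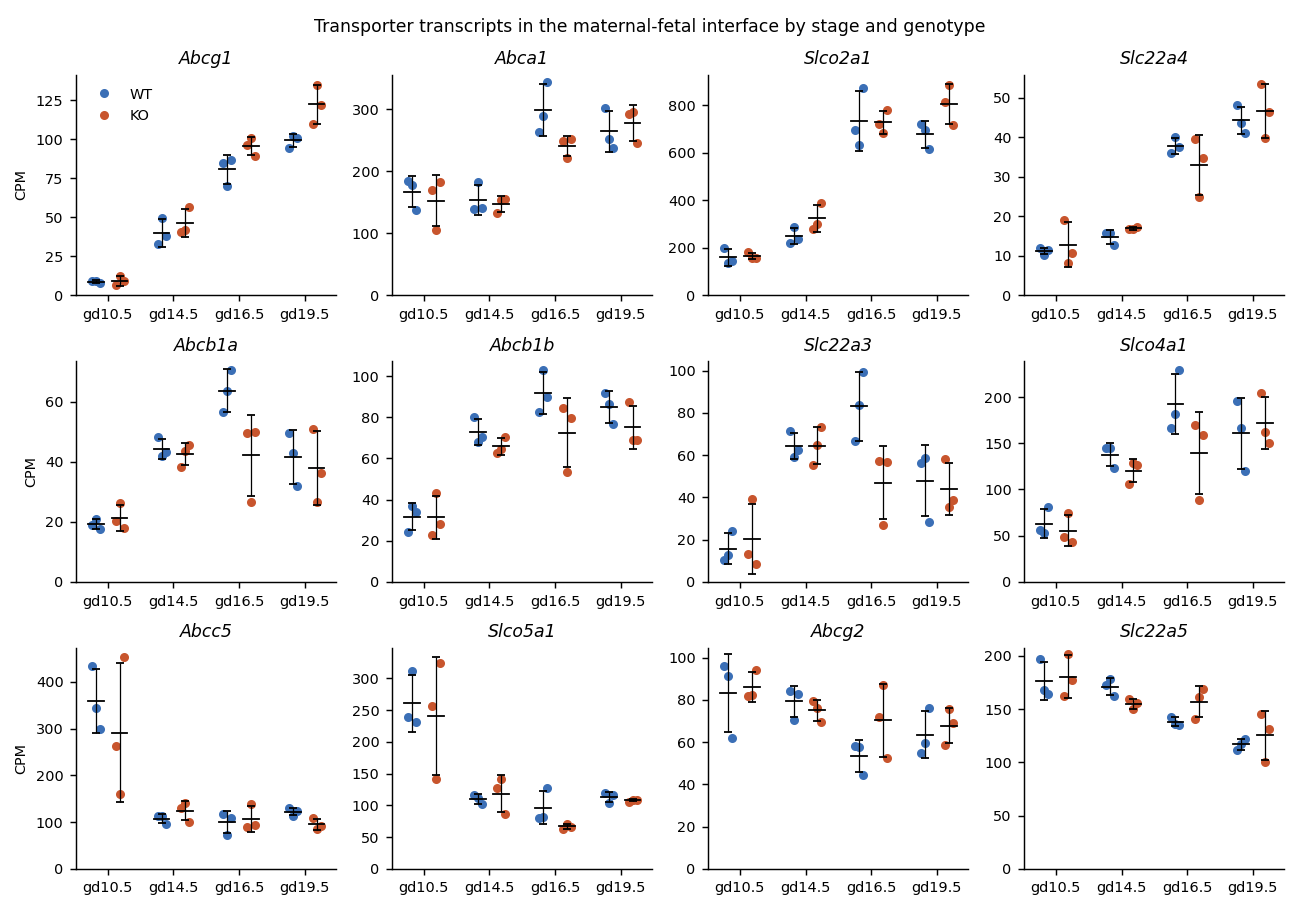
Points are the CPM of single libraries by stage for 12 transporters, WT in blue and KO in orange, with the mean (line) and SD (bar) of the 3 libraries per group; each vertical axis starts at 0. *Abcg1*, *Slco2a1* and *Slc22a4* were higher at gd16.5 than at gd10.5 in every library of both genotypes, *Abcc5* and *Slco5a1* were highest on average at gd10.5, and *Abcg2* and *Slc22a5* moved little.

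The 2 mouse genes of P-glycoprotein, the main drug efflux pump of the placenta, rose together at the first step. *Abcb1a* was at 18.9, 21.0 and 17.7 CPM in WT at gd10.5, 48.2, 41.9 and 43.2 CPM at gd14.5, 56.5, 63.7 and 70.8 CPM at gd16.5 and 49.8, 43.0 and 32.1 CPM at gd19.5. *Abcb1b* was at 24.1, 36.7 and 34.0 CPM, then 80.2, 67.8 and 70.4, then 82.7, 103 and 89.8, then 91.9, 86.3 and 76.5. No gd14.5 library of either gene overlapped a gd10.5 library. Both rose at the first WT step, *Abcb1a* by a log2 fold change of 1.21 ± 0.14 (adjusted p = 1.04e-05) and *Abcb1b* by 1.21 ± 0.14 (adjusted p = 1.05e-05). In KO, *Abcb1b* rose (1.07 ± 0.22, adjusted p = 0.00301), a call that was lost without KO gd10.5 replicate 1 (0.88) or 3 (0.99), and *Abcb1a* had 0.99 ± 0.27 (adjusted p = 0.0113), just under the fold threshold. *Abcb1a* was lower at gd19.5 than at gd16.5 in every WT library (-0.61 ± 0.14, adjusted p = 0.018), under the fold threshold, while *Abcb1b* had -0.11 (adjusted p = 0.679) there. Their transcripts share 87.7% of the bases over 4000, so some reads may have been lost from both or assigned to the other.

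The other gene of that locus went the other way. *Abcb4*, which exports phosphatidylcholine into bile, lies with *Abcb1a* and *Abcb1b* within 299 kb at chr5:8660077-8959231. In WT it had 1.69, 2.29 and 0.930 CPM at gd10.5 and 0.368, 0.525 and 0.463 CPM at gd14.5, and it fell (-1.87 ± 0.32, adjusted p = 0.00031). In KO it fell from 2.13, 0.913 and 2.01 to 0.566, 0.695 and 0.612 CPM (-1.43 ± 0.33, adjusted p = 0.0053). *Abcb11*, the bile salt export pump, was between 0.338 and 1.94 CPM and fell at the first KO step (-1.26 ± 0.37, adjusted p = 0.0163), with 1.38, 0.609 and 1.94 CPM at gd10.5 and 0.566, 0.670 and 0.383 CPM at gd14.5, while the WT step had -0.40 ± 0.52 (adjusted p = 0.534). In WT at gd10.5 it was at 1.79 CPM in replicate 1 and at 0.432 and 0.338 CPM in the others, so that 3 of the 4 marker-rich libraries were high. The KO call of *Abcb11* was lost with the marker sum in the fit (-0.91, adjusted p = 0.282) and without KO gd10.5 replicate 3 (-0.86, adjusted p = 0.0828) or KO gd14.5 replicate 3 (-1.09, adjusted p = 0.0628). The KO call of *Abcb4* was also lost with the marker sum, which took the members called at this KO step from 25 to 6. *Abcb6*, a mitochondrial and membrane porphyrin carrier, had 2 to 19 counts, but 55.2% of its exon bases are also those of another gene on the same strand, so reads from the shared bases may not be counted for either.

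Among the Abcc genes (multidrug resistance proteins), *Abcc5*, an exporter of cyclic nucleotides and folates, was the most abundant and fell. WT libraries were at 433, 344 and 300 CPM at gd10.5 and at 112, 113 and 96.0 CPM at gd14.5, and they stayed between 73.3 and 130 CPM afterwards. KO libraries were at 263, 159 and 453 CPM at gd10.5 and at 130, 141 and 101 CPM at gd14.5. The gd10.5 libraries were above the gd14.5 libraries throughout, but KO replicate 2 came close to them. The log2 fold change was -1.74 ± 0.17 (adjusted p = 2.36e-06) in WT and -1.24 ± 0.31 (adjusted p = 0.00814) in KO, where it was -0.77 without replicate 3 of gd10.5 and no longer called. Decidual stroma markers moved with it: their sum was 5952 to 13353 CPM in WT and 2268 to 11350 in KO at gd10.5 and 2467 to 3021 CPM at gd14.5, with 7 of 8 markers lower in WT. Among the 6 gd10.5 libraries, KO replicate 2 was lowest and KO replicate 1 next lowest in both *Abcc5* and the decidual sum. The part of these cells in the result was not tested.

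*Abcc1*, a broad exporter of glutathione conjugates, had 30.8, 33.0 and 41.0 CPM in WT at gd10.5 and 61.8, 67.3 and 83.9 CPM at gd16.5, with a range over the stages of 1.03 on the log2 scale (adjusted p = 4.25e-05) and no called step. *Abcc4*, an exporter of cyclic nucleotides and prostaglandins, had 25.6, 11.8 and 9.85 CPM in WT and 22.4, 8.49 and 26.6 in KO at gd10.5, so that 1 WT and 2 KO libraries stood above the rest, and 7.44, 9.75 and 7.61 CPM in WT and 8.21, 7.21 and 8.84 in KO at gd14.5. It fell in KO (-1.25 ± 0.31, adjusted p = 0.00717, and not called at -0.94 without KO gd10.5 replicate 3), and WT had -0.93 ± 0.28 (adjusted p = 0.0121). Those 3 libraries are among the marker-rich ones, and the part of yolk sac tissue was not tested. *Abcc3*, an exporter of glucuronides, stayed between 3.34 and 8.60 CPM. *Abcc12*, whose substrates are little known, rose from 0.0688, 0.243 and 0.127 to 2.55, 2.60 and 1.72 CPM at the first WT step (3.88 ± 0.30, adjusted p = 4.24e-07) and to 5.54, 5.83 and 4.81 CPM at the second (1.23 ± 0.21, adjusted p = 0.00125). *Abcc9*, the sulfonylurea receptor SUR2 that forms potassium channels of smooth muscle, had 5.26, 3.72 and 3.76 CPM in WT at gd10.5, 1.68, 2.76 and 1.81 CPM at gd14.5 and 4.42, 4.73 and 4.13 CPM at gd16.5. It fell and then rose, at log2 fold changes of -1.02 ± 0.24 (adjusted p = 0.00278) and 1.08 ± 0.24 (adjusted p = 0.00649), and in KO the same happened at -1.19 ± 0.30 and 1.35 ± 0.31, the fall not called without KO gd10.5 replicate 3 (-0.77) and the rise not without KO gd14.5 replicate 1 (1.22) or 2 (1.35). Both WT calls were lost when the yolk sac marker sum was added to the fit. *Abcc8*, the related receptor SUR1, fell from 2.68, 3.24 and 4.40 to 1.97, 1.38 and 1.09 CPM at the first WT step, a call that was lost without WT gd10.5 replicate 3, WT gd14.5 replicate 2 or WT gd14.5 replicate 3.

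Members with duties inside the cell changed less. *Abcb10*, of the mitochondrial inner membrane, stayed between 28.8 and 48.6 CPM. *Abcd3*, a peroxisomal importer of branched-chain and bile acid precursors, rose from 47.3, 42.4 and 27.0 to 83.4, 80.7 and 78.6 CPM in WT (1.06 ± 0.15, adjusted p = 5.95e-05), a call that was lost without WT gd10.5 replicate 3. In KO it had 0.58 ± 0.11 (adjusted p = 0.00192). *Abce1* went from 198, 224 and 223 CPM in WT at gd10.5 to 140, 149 and 157 CPM at gd19.5, and its range over the stages was 0.57 on the log2 scale (adjusted p = 0.00015). *Abcf1* was at 101, 100 and 125 CPM in WT at gd10.5 and at 203, 192 and 205 CPM at gd16.5, with a range of 0.89 (adjusted p = 1.67e-05). Close copies of both exist elsewhere in the genome, such as *Gm6640*, which matches *Abce1* at 93.6% over 1589 bases.

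*Slco2a1*, which takes up prostaglandins for breakdown, had the largest counts of the Slco genes. The WT libraries were at 199, 134 and 142 CPM at gd10.5, 219, 287 and 238 CPM at gd14.5, 694, 631 and 872 CPM at gd16.5 and 721, 695 and 613 CPM at gd19.5. The KO libraries were at 180, 155 and 158, then 278, 300 and 389, then 719, 684 and 781, then 814, 886 and 718 CPM. The first 2 stages did not overlap in either genotype, and the last 2 stages lay above both. From gd14.5 to gd16.5 *Slco2a1* rose by a log2 fold change of 1.57 ± 0.17 (adjusted p = 5.29e-05) in WT and 1.18 ± 0.14 (adjusted p = 0.000562) in KO. The gene lies at chr9:102988712-103096002 (GRCm38, plus strand).

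*Slco4a1* rose at the first step, from 56.0, 52.5 and 80.6 to 145, 145 and 123 CPM in WT (1.14 ± 0.19, adjusted p = 0.000237) and from 49.0, 74.7 and 42.9 to 106, 129 and 126 CPM in KO (1.12 ± 0.25, adjusted p = 0.00447). *Slco5a1*, an orphan relative, fell from 239, 312 and 231 to 116, 112 and 102 CPM in WT (-1.24 ± 0.16, adjusted p = 3.18e-05) and from 257, 141 and 325 to 127, 142 and 86.6 CPM in KO (-1.03 ± 0.25, adjusted p = 0.0066), where 1 library of each stage met, at 141 and 142 CPM. That KO call was lost without KO gd10.5 replicate 1 (-0.99) or 3 (-0.76) or KO gd14.5 replicate 3 (-0.86), and the KO call of *Slco4a1* without KO gd10.5 replicate 3 (0.96). At this first step alone NK cell markers moved with *Slco5a1*: their sum was 821 to 2160 CPM at gd10.5 and 160 to 473 CPM at gd14.5. All 7 markers of the list fell in WT, and decidual stroma markers fell at this step too. KO gd10.5 replicate 2 was lowest of the 6 in *Slco5a1* and in the NK cell sum. Later in WT the NK cell sum went on to 91.2 to 136 CPM at gd16.5 and 41.1 to 52.9 CPM at gd19.5. *Slco5a1* was at 80.7 to 127 and 104 to 119 CPM there. The part of these cells was not tested. *Slco3a1*, found in many tissues, stayed between 17.3 and 31.6 CPM and was not called. *Slco2b1*, a carrier of sulphated steroids, lay between 3.16 and 9.68 CPM and was not called either, and 20.4% of its exon bases are shared with a gene on the other strand. *Slco1a6* had 0.241, 0.243 and 0.127 CPM in WT at gd10.5, 0.474, 0.442 and 0.463 CPM at gd14.5 and 1.65, 1.10 and 0.924 CPM at gd16.5. It rose at the second step in both genotypes, by 1.42 ± 0.36 (adjusted p = 0.0135) in WT and 2.76 ± 0.33 (adjusted p = 0.000562) in KO, and the WT call was lost without WT gd16.5 replicate 1. *Slco1a6* was also called at the first WT step, but that call held in only 9 of 19 alternative settings.

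The 3 carnitine transporter genes form a run at chr11:53864542-54028090 and each had its own course. *Slc22a5* (OCTN2) was at 197, 168 and 164 CPM in WT at gd10.5, 173, 178 and 162 CPM at gd14.5, 143, 136 and 135 CPM at gd16.5 and 112, 117 and 122 CPM at gd19.5. Its range over the WT stages was 0.57 on the log2 scale (adjusted p = 8.59e-05), under the fold threshold. *Slc22a4* (OCTN1), which carries ergothioneine, was at 11.8, 10.2 and 11.3 CPM, then 15.6, 15.8 and 12.7, then 35.9, 39.9 and 37.4, then 48.0, 43.6 and 41.1. It rose from gd14.5 to gd16.5 (1.36 ± 0.10, adjusted p = 3.67e-06), and in KO this step had 0.97 ± 0.26 (adjusted p = 0.0282). *Slc22a21* (OCTN3) went from 7.53, 7.93 and 6.30 to 3.97, 4.75 and 3.32 CPM at the first WT step (-0.84 ± 0.16, adjusted p = 0.00048), under the fold threshold, and its transcript matches that of *Slc22a5* at 88.8% over 2113 bases.

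Among the organic cation transporters, *Slc22a3*, a carrier of monoamines (OCT3), had 10.2, 12.8 and 24.3 CPM in WT at gd10.5, 71.2, 59.1 and 62.4 CPM at gd14.5, 66.6, 83.6 and 99.3 CPM at gd16.5 and 56.4, 58.6 and 28.4 CPM at gd19.5. It rose at the first step by 2.05 ± 0.31 (adjusted p = 0.000102) in WT and 1.67 ± 0.48 (adjusted p = 0.0147) in KO, where replicate 2 at gd10.5 was at 39.1 CPM against 13.0 and 8.65 CPM and the call was lost without replicate 1 of gd10.5 (1.43, adjusted p = 0.0621). Spongiotrophoblast and glycogen cell markers summed to 1365 to 2051 CPM in WT at gd10.5 and to 29648 to 31822 CPM at gd14.5, with 5 of 7 higher and none lower. Syncytiotrophoblast markers summed to 1095 to 1489 CPM and to 1855 to 3208 CPM, with 5 of 7 tested higher. The part of these cells in the changes of *Slc22a3*, *Slco4a1*, *Abcb1a* and *Abcb1b* was not tested. *Slc22a3* also shares 9.31% of its exon bases with *Plg* on the other strand. Among orphan members, *Slc22a23* rose at the first WT step from 58.8, 45.7 and 71.3 to 147, 127 and 114 CPM (1.15 ± 0.17, adjusted p = 7.23e-05), a call that was lost without WT gd10.5 replicate 2, and *Slc22a17*, a lipocalin receptor, stayed between 7.69 and 14.2 CPM.

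**Figure D3:**
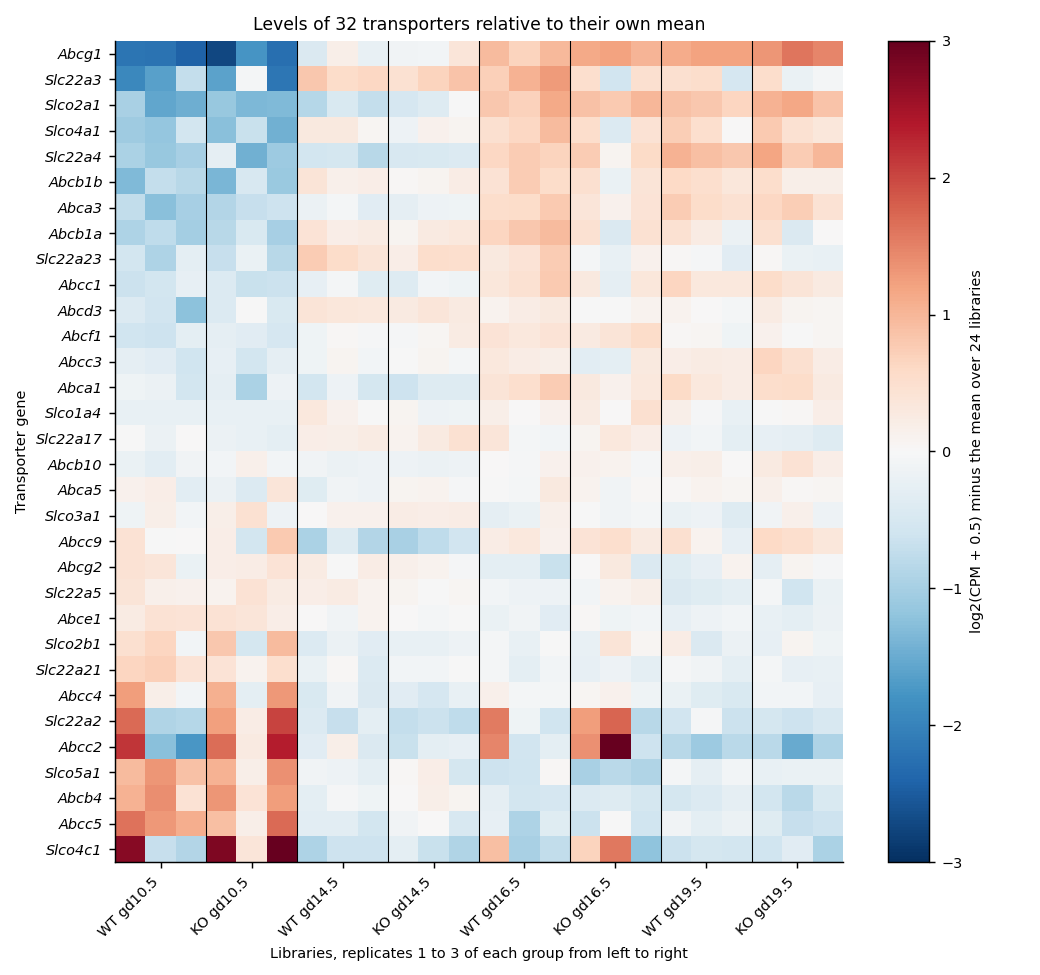
Each row is 1 of 32 transporters and each column 1 of 24 libraries; colour is log2(CPM + 0.5) minus the mean of that gene over the libraries, so red is above and blue below its own mean. Rows run from the genes lowest at gd10.5, led by *Abcg1*, to those highest there, ending with *Abcc5* and *Slco4c1*, and *Abcc2*, *Slc22a2* and *Slco4c1* are red in single libraries of gd10.5 and gd16.5.

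A group of transporters best known from liver, kidney and gut was high in the libraries rich in yolk sac markers. The group was picked after its values were seen, so no test is given. These are *Abcc2*, which exports conjugated bilirubin, *Slco1b2*, its uptake partner in hepatocytes, *Slco4c1*, *Slc22a2* (OCT2), *Slc22a6* (OAT1), *Slc22a8* (OAT3) and *Abcc6*. At gd10.5 *Abcc2* was at 18.2 CPM in WT replicate 1 and at 13.0, 4.57 and 21.2 CPM in KO, the 4 libraries over 1000 CPM of markers, against 1.27 and 0.761 CPM in the other 2 WT libraries. At gd16.5 it was at 11.1 CPM in WT replicate 1 and at 10.4 and 33.2 CPM in KO replicates 1 and 2, against 2.34, 2.97 and 2.23 CPM in the others. In the 12 libraries of gd14.5 and gd19.5 it lay between 0.988 and 4.28 CPM.

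*Slco4c1* followed the same libraries, at 7.15 CPM in WT and 7.61, 0.990 and 9.89 CPM in KO at gd10.5, against 0.216 and 0.127 CPM. At gd16.5 it was at 1.34 to 2.99 CPM in the 3 marker-rich libraries and at 0 to 0.195 CPM in the other 3. *Slc22a2* was at 0.647 to 3.46 CPM in the 4 marker-rich gd10.5 libraries and at 0.0270 and 0.0423 CPM in the other 2. *Slc22a6* had 92, 22, 25 and 54 counts in those 4 and 2 and 0 in the others, then 20, 14 and 25 counts in the 3 marker-rich gd16.5 libraries and 0 in the other 3. *Slc22a8* had 0.495 to 2.35 CPM in the 4 at gd10.5 and none in the other 2, but at most 0.289 CPM at gd16.5. *Slco1b2* was the reverse: it had 152 counts in WT replicate 1 and 154 and 727 counts in KO replicates 1 and 2 at gd16.5 against 7, 1 and 3 in the others, and at gd10.5 its highest count was 28. *Alb*, a hepatocyte and yolk sac product, was at 164, 150 and 1027 CPM in those same 3 gd16.5 libraries and at 1.07 to 2.87 CPM in the other 3. At gd10.5 *Alb* did not follow the marker sum in this way. It was at 3.61 CPM in WT replicate 1 and at 0.149, 16.8 and 0.865 CPM in KO, against 0.162 and 0.0846 CPM in the other WT libraries.

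In all, 6 of the 65 members tested over 24 libraries were higher in every marker-rich library than in every other library of the same stage at both gd10.5 and gd16.5 (1.78% of all genes), and none was lower in this way (29 of 19299 genes were). The 6 are the 7 named without *Slco1b2*. A gene can pass the filter through the marker-rich libraries alone, so this count is a description. For *Slc22a8* the order at gd16.5 rests on values as low as 0.0498 CPM, under the limit of 3 counts. Y-linked transcripts made the same split at gd16.5. They summed to 89.1, 194 and 188 CPM in the marker-rich libraries and to 0.486 to 1.14 CPM in the others. At that stage the marker sum and male fetal tissue cannot be told apart. At gd10.5 the Y-linked sum was 71.0 CPM in KO replicate 2 and at most 0.311 CPM in the other libraries. The marker-rich libraries are not a group of the study, and the part of yolk sac tissue in these values was not tested. Because all 3 KO libraries of gd10.5 are among them, a KO step from gd10.5 cannot be told apart from the marker sum: *Abcc2*, *Abcc6*, *Slc22a2*, *Slc22a6*, *Slc22a8* and *Slco4c1* were called lower at the first KO step, at log2 fold changes of -2.25 for *Abcc2*, -2.93 for *Abcc6*, -4.21 for *Slc22a2* and -4.51 for *Slco4c1*. *Slc22a6* and *Slc22a8* had at most 3 counts in a KO library at gd14.5, so no fold is given for them. In the WT fit, *Abcc2* and *Slc22a2* were not called at that step and the other 4 did not pass the filter. Without the expression filter all 6 were called at that WT step, where gd10.5 replicate 1 is marker-rich. Without the marker-rich libraries *Abcc2* was called there as higher, at 2.84, 4.28 and 2.61 CPM at gd14.5 against 1.27 and 0.761 CPM at gd10.5. With the marker sum in the fit, the KO calls went from 25 to 6 at the first step and from 13 to 3 at the second, while the first WT step went from 26 to 25. Among the calls lost at the first KO step were also those of *Abca17*, *Abcb1b*, *Abcb4*, *Abcb11*, *Abcc4*, *Abcc5*, *Abcc9*, *Slc22a3*, *Slco4a1* and *Slco5a1*.

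**Figure D4:**
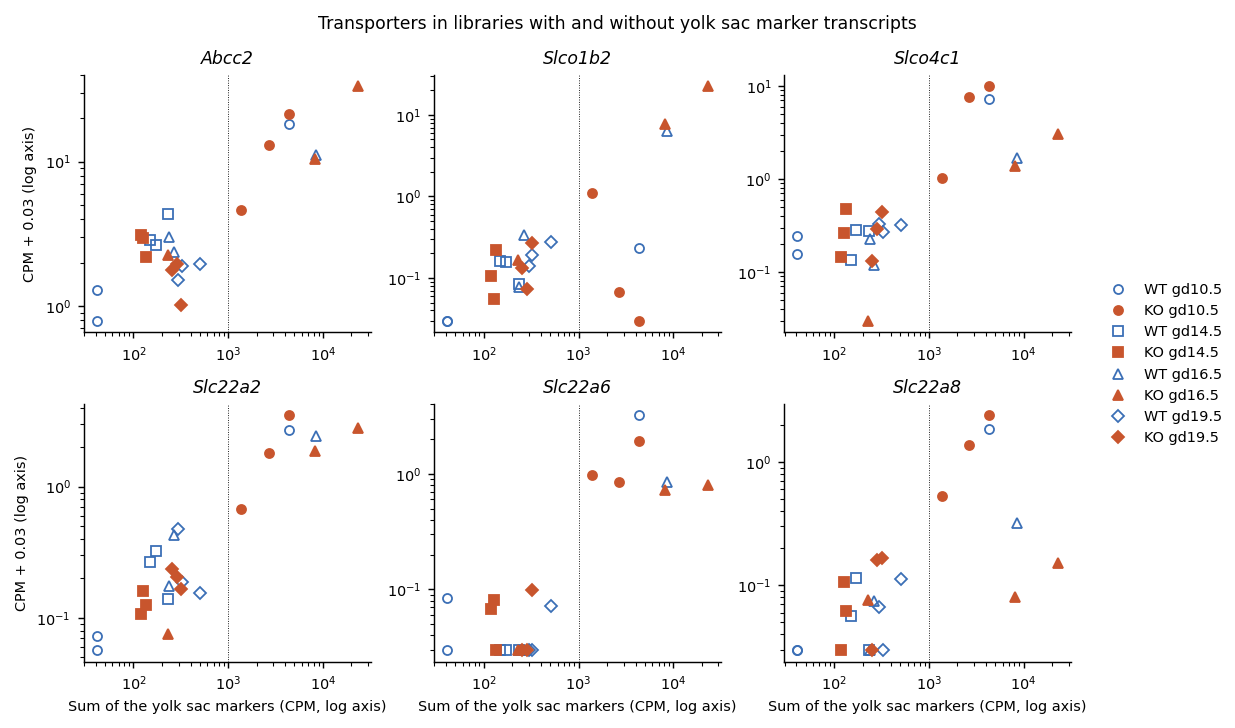
For 6 transporters, each point is 1 library placed by the summed CPM of 13 yolk sac endoderm markers (horizontal, log axis) and by its own CPM plus 0.03 (vertical, log axis); shapes are stages, open blue is WT and filled orange is KO, and the dotted line is 1000 CPM of markers. *Abcc2*, *Slco4c1*, *Slc22a2* and *Slc22a6* were highest in the 7 libraries right of the line, *Slco1b2* in the 3 of gd16.5 and *Slc22a8* in the 4 of gd10.5.

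For 5 of these genes, of which *Slco1b2* was high in the marker-rich libraries of gd16.5 alone, the bases before the start sites are shown (RefSeq, GRCm38.p6), as far as they lie outside the exons of the table. No window is shown for *Slc22a8*, and none was looked up for *Abcc6*. RefSeq start sites were found for 72 of the 90 members, and the window taken was 250 bases. The letters GTTAAT, a half-site of the liver factor HNF1, were searched on both strands and are in capitals; they are part of no other motif searched. They occur in 6.43% of all windows of 250 bases. CAAAGTCCA, a form of the HNF4 site, occurs in 0.384% of them and in none of the 5 windows shown. The windows are chr6:141629268-141629517 (plus strand) for *Slco1b2*, chr19:8617746-8617995 (plus) for *Slc22a6*, chr19:43782058-43782191 (plus) for *Abcc2*, chr1:96872172-96872421 (minus) for *Slco4c1* and chr17:12583939-12584131 (plus) for *Slc22a2*.
*Slco1b2*: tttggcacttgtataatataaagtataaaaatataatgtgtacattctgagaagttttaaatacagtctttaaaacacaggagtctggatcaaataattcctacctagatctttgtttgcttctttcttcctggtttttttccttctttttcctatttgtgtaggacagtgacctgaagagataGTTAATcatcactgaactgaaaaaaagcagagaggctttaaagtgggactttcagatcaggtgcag
*Slc22a6*: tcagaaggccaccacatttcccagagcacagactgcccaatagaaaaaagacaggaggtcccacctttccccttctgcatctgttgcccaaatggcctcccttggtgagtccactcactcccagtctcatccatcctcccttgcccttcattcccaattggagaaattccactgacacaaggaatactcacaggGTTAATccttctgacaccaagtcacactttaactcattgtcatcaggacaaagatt
*Abcc2*: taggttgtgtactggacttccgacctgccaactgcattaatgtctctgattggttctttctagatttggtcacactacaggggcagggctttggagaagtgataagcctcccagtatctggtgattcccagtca
*Slco4c1*: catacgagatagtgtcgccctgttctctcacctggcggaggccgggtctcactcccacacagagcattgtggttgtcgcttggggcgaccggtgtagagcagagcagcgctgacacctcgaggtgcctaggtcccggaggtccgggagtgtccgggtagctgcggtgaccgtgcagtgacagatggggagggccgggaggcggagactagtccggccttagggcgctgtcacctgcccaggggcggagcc
*Slc22a2*: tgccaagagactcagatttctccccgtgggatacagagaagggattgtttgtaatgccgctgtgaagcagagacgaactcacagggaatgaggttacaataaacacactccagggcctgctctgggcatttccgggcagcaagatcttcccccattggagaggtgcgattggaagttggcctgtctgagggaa
GTTAAT starts 66 bases before the *Slco1b2* start site and 56 bases before that of *Slc22a6*. A match is no sign that a factor binds, and the 3 windows without one show only that these letters are not in them. The *Slco4c1* window stood out in base content, with 66.4% G and C against 33.6% for *Slco1b2*, 48.4% for *Slc22a6*, 47.8% for *Abcc2* and 52.3% for *Slc22a2*.

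The comparison of KO with WT asks whether loss of *C1qtnf6* altered these carriers. No member passed the test at any stage: 0 of 58 tested at gd10.5 (0.00572% of all genes did), 0 of 58 at gd14.5 (0.0166%), 0 of 61 at gd16.5 (0.00586%) and 0 of 58 at gd19.5 (0.023%). At gd16.5 this fit called 1 of 17071 genes, while the paper, with DESeq2 and the same thresholds, reports many more. With edgeR, 0, 4, 11 and 9 members had an unadjusted p under 0.05 at the 4 stages, beside 0.801%, 6.78%, 11.1% and 13.5% of all genes, and DESeq2 called none. These counts of 0 rest in part on the fold threshold. By adjusted p alone, edgeR still gave none, but DESeq2 gave *Slc22a23* at gd16.5 and *Abcc5* at gd19.5, the fit with the replicate block gave *Abcc5* at gd19.5, and edgeR without the expression filter gave *Slco2a1* at gd14.5, *Slc22a23* at gd16.5 and *Abcc5* and *Abcg1* at gd19.5. Without that filter 243, 114 and 675 of all genes were under 0.05 at these 3 stages. The genotype-by-stage interaction called none of 65 members (0% of all genes, smallest adjusted p among members 0.652), with 5 at an unadjusted p under 0.05 (7.23% of all genes). Over all stages together none of 65 was called (0.0155%), with 7 at an unadjusted p under 0.05 (6.34%). The median log2 fold change of the members tested was 0.05, 0.00, 0.04 and -0.04 from gd10.5 to gd19.5.

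These data limit the size of a difference for many members. The 95% interval of the log2 difference, KO minus WT, lay within 1 on either side of 0 for 39 of 58 members at gd10.5, 50 of 58 at gd14.5, 39 of 61 at gd16.5 and 49 of 58 at gd19.5. Over all stages it ran from -0.07 to 0.30 for *Abcg2*, from -0.41 to 0.08 for *Abcb1a*, from -0.37 to 0.02 for *Abcb1b*, from -0.28 to 0.07 for *Abca1*, from -0.07 to 0.16 for *Slc22a5*, from -0.43 to 0.06 for *Slco4a1* and from -0.60 to 0.30 for *Slc22a3*.

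The members with the smallest unadjusted p follow, none of which passed. At gd10.5 they were *Abcb10* (0.21 ± 0.11), the fatty acid importer *Abcd2* (-0.67 ± 0.37) and *Abcd3* (0.43 ± 0.23), each with an adjusted p of 1. At gd14.5 *Abca5* was at 44.0, 44.8 and 40.0 CPM in KO against 32.1, 38.4 and 37.4 CPM in WT (0.25 ± 0.08, adjusted p = 0.693), *Slco2a1* had 0.37 ± 0.13 (adjusted p = 0.694, with 0.000158 to 1 over 13 alternative settings) and *Abca8a* had -0.55 ± 0.22 (adjusted p = 0.728). At gd16.5 *Slc22a23* was at 82.8, 75.0 and 94.4 CPM in KO against 107, 115 and 147 CPM in WT (-0.53 ± 0.14, adjusted p = 0.378, with 0.0317 to 0.941 over the alternative settings). *Slco1a6* was at 2.94, 2.62 and 2.01 against 1.65, 1.10 and 0.924 CPM (1.04 ± 0.27, adjusted p = 0.385), and *Abcd4*, of the lysosomal cobalamin pathway, at 39.5, 43.6 and 48.2 against 51.3, 54.1 and 55.6 CPM (-0.28 ± 0.09, adjusted p = 0.421). In these 3 the groups did not overlap, as in 6 members that were higher and 8 that were lower in KO at gd16.5, beside 8.11% and 9.62% of all genes.

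KO gd16.5 replicate 2, the library with 23156 CPM of yolk sac markers, was the lowest KO library of its stage for several abundant carriers. *Slc22a3* was at 57.2, 26.9 and 56.6 CPM in KO against 66.6, 83.6 and 99.3 in WT (-0.82 ± 0.29, adjusted p = 0.431), *Abcb1a* at 49.8, 26.7 and 50.0 against 56.5, 63.7 and 70.8 CPM (-0.58 ± 0.23, adjusted p = 0.435) and *Slco4a1* at 170, 89.1 and 159 against 166, 182 and 229 CPM. Its syncytiotrophoblast marker sum was 1606 CPM against 2726 to 4027 CPM in the other gd16.5 libraries. The part of these marker levels in the values was not tested. The largest positive differences at gd16.5 were those of *Slco1b2* and *Abcc2*, at log2 fold changes of 2.18 and 1.50, and both rest on the marker-rich libraries described above.

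At gd19.5 *Abcc5* was at 109, 86.0 and 91.4 CPM in KO against 130, 114 and 123 CPM in WT (-0.39 ± 0.09, adjusted p = 0.153), the smallest adjusted p of any member. Over 13 alternative settings its log2 fold change lay between -0.485 and -0.314, under the fold threshold, and its adjusted p between 0.000268 and 0.771, with 0.0225 by DESeq2, 0.0422 with the replicate block and the lowest value without the expression filter. *Abcg1* was at 110, 135 and 122 against 94.5, 102 and 101 CPM (0.28 ± 0.08, adjusted p = 0.207, with 0.0191 to 0.687 over the alternatives), and *Slc22a13b* at 0.218, 0.307 and 0.170 against 0.557, 0.485 and 0.542 CPM (-1.19 ± 0.35, adjusted p = 0.207). *Slc22a13b*, annotated as a polymorphic pseudogene, had 5, 9 and 5 counts in KO against 14, 13 and 13 in WT. Its transcript matches that of *Slc22a13* at 99.3% over 681 bases, so reads may have been lost. Over all stages the smallest p were those of *Abcf3* (0.08 ± 0.03, adjusted p = 0.73), *Slco1a6* (0.49 ± 0.20, adjusted p = 0.733) and *Abcg1* (0.21 ± 0.09, adjusted p = 0.733). *Abcg1* means were higher in KO than in WT at all 4 stages, with overlapping libraries at gd10.5 and gd14.5.

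**Figure D5:**
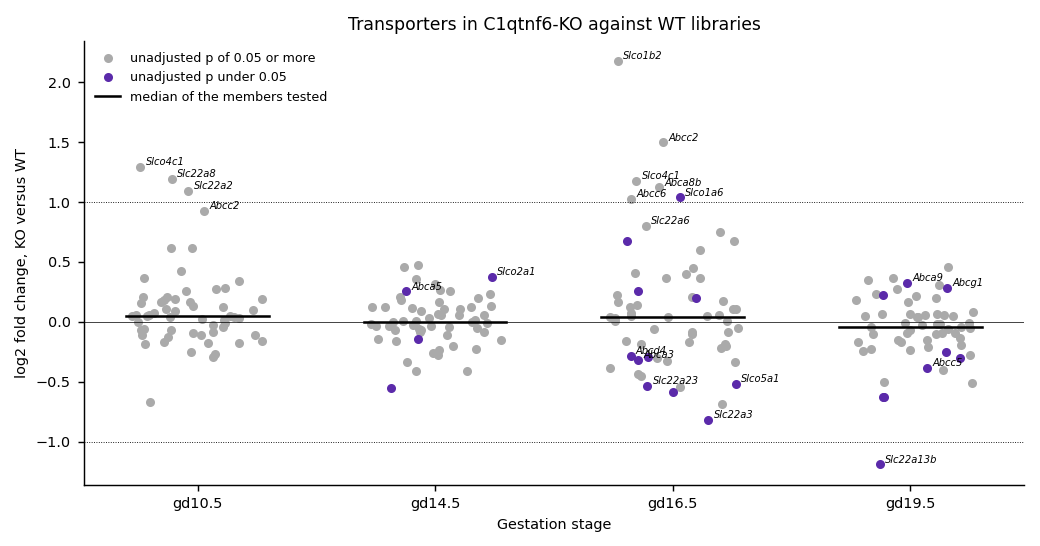
Each point is a transporter tested at that stage, placed by its log2 fold change in KO against WT; purple marks an unadjusted p under 0.05, black lines are medians, dotted lines mark the fold threshold, and the sideways spread is for display. None of the points passed the adjusted test, and the points above 1 were *Slco4c1*, *Slc22a8* and *Slc22a2* at gd10.5 and *Slco1b2*, *Abcc2*, *Slco4c1*, *Abca8b*, *Slco1a6* and *Abcc6* at gd16.5.

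The other genes of the same pathways came from 4 lists. Of 19 nuclear receptors and regulators that can set transporter levels, 18 were tested in WT. At the first step, where 10.7% of all genes rose and 11.6% fell, *Pparg*, which drives trophoblast differentiation, rose (1.38 ± 0.09, adjusted p = 1.35e-07) while *Ppard* (-1.12 ± 0.13) and the bile acid receptor *Nr1h4* (-2.65 ± 0.97) fell. *Nr1h4* was at 3.75 CPM in WT gd10.5 replicate 1, the marker-rich library, against 0.513 and 0.423 CPM, and without that library its log2 fold change was -0.94 (adjusted p = 0.395). The call was also lost without any 1 of the WT gd14.5 libraries. At gd16.5 *Nr1h4* was at 2.35, 3.63 and 9.08 CPM in the 3 marker-rich libraries and at 0.0973 to 0.442 CPM in the other 3. Of 12 sterol partners, 3 rose and 3 fell at that step, among them *Pltp*, which moves phospholipid between lipoproteins (1.26 ± 0.15), and the high-density lipoprotein receptor *Scarb1* (-2.13 ± 0.14). None of the 12 was called at the 2 later WT steps. Of 17 other carriers, 14 were tested, 2 rose and 1 fell at the first step, with *Slc29a4*, a monoamine transporter like *Slc22a3*, up at the first step (3.37 ± 0.32, adjusted p = 1.92e-06) and the second (1.26 ± 0.24, adjusted p = 0.00239) and down at the last (-2.25 ± 0.25, adjusted p = 0.000473). Of 24 enzymes that act on transported substrates, 21 were tested, 6 rose and 1 fell at the first WT step. *Maoa*, which breaks down monoamines, rose (1.43 ± 0.13), and *Dio3*, which inactivates thyroid hormone, fell at the first (-3.36 ± 0.32) and second step (-4.24 ± 0.46), while *Sult1e1*, the estrogen sulphotransferase, rose at the second (1.63 ± 0.21) and the last (1.36 ± 0.20). No gene of these 4 lists was called between KO and WT at any stage in the edgeR fits. The paper, which used DESeq2, lists *Sult1e1* among the genes changed in KO at gd16.5. At that stage it was at 109, 101 and 58.0 CPM in KO against 34.2, 47.8 and 36.0 CPM in WT.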

How the data were processed

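PolyA RNA of the MFI was sequenced as paired-end reads from a TruSeq stranded kit. The authors trimmed reads with Trim Galore 0.6.4, aligned them to GRCm38 with STAR 2.7.3a, counted them per gene with featureCounts of Subread 2.0.0 and deposited raw read counts, which were used as they are. Default counting ignores strand and drops multi-mapping reads. Samples were grouped by the genotype and stage of the labels, and the matrix had a column for each of the 24 libraries. Replicates are numbered by the library names of the labels and the matrix, while sample titles number the KO libraries from 3 to 5. Pairs of replicates differed by more than counting noise (chi-square per degree of freedom 8.68 to 188 over 24 pairs).

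Genes were filtered with filterByExpr (minimum count 10, total 15), scaled by TMM and tested in R 4.3.3 by quasi-likelihood (edgeR 4.0.16, limma 3.58.1). P-values were adjusted by Benjamini-Hochberg over all genes tested. KO was compared with WT in the 6 libraries of a stage, stages within the 12 libraries of a genotype, and the interaction and the difference over all stages in all 24. CPM used TMM-scaled library sizes and RPKM also the exon length. A change over the stages needed an adjusted p under 0.05 and a log2 range of stage means over 1, and the interaction and the difference over all stages an adjusted p under 0.05. Scripts were tested on simulated data. Alternatives were DESeq2 1.42.0, other scalings, filters and thresholds, a replicate block, the summed level of Y-linked genes as a covariate, leaving out each library and, chosen after seeing the data, the yolk sac marker sum as a covariate or leaving out the libraries rich in it. Intervals are 95% and cover the spread between libraries, while limits of 3 counts cover counting error alone. Transcripts were compared with BLAST 2.17.0, and motifs searched with Python 3.11.15. Members and lists were chosen with earlier results of these data known. The genes named are a fixed list of 34 transporters (2 of them are not reported here), the members called at a step, and the 3 with the smallest p in each comparison of KO with WT; the yolk sac group was picked after its values were seen.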

Additional observations from a re-analysis of the deposited data

How the results depend on the processing

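Of 285 recomputed counts of called members, 260 were within 1.5 times the reported one, where a 0 that stayed 0 was included. Shares over all genes are not given for the recomputed counts. They show how the calls moved and nothing particular to transporters. Of 971 recomputed tests of single members 897 kept their outcome, 74 lost a call and none turned. They covered the calls at WT steps and the members with the smallest p of KO against WT. For the latter the outcome kept was no call. Calls at KO steps were not among the 971. Without a fold threshold, 42, 21 and 5 members were called at the 3 WT steps, 40 and 21 at the first 2 KO steps, and 49 (WT) and 54 (KO) over the stages. With the yolk sac marker sum in the fit, chosen after seeing the data, 7 were called at the second WT step, 6 at the first and 3 at the second KO step. All 3 KO gd10.5 libraries are rich in these transcripts, so that fit could not be made without them. Without an expression filter, 5 members were called at the last step in WT and 5 in KO. The last KO step also gave 4 at an adjusted p under 0.1, 5 with DESeq2 and 3 in one fit of all 24 libraries.

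Leaving out 1 library gave 22 to 28, 6 to 12 and 1 to 1 members at the WT steps, 16 to 29, 5 to 15 and 0 to 5 at the KO steps, and 28 to 34 (WT) and 33 to 40 (KO) over the stages. The second WT step had 6 without WT gd14.5 replicate 1 and 7 without replicate 3 or WT gd16.5 replicate 3. The first KO step had 16 without KO gd10.5 replicate 3. The second KO step had 5 without KO gd14.5 replicate 1 or 2 and 7 without replicate 3 or KO gd16.5 replicate 2. The last KO step had 5 without KO gd10.5 replicate 2 and 4 without KO gd16.5 replicate 3. The causes were not tested. KO against WT, the interaction and the difference over all stages stayed at 0 in every recomputed count. For KO against WT the alternative fits kept the fold threshold in these counts. By adjusted p alone, DESeq2, the replicate block and edgeR without the expression filter gave the members named earlier. Same-numbered replicates of KO and WT had correlations of -0.570 to 0.479, with 6 of 12 over 0.1. Those with different numbers had -0.668 to 0.641. At gd14.5 and gd19.5 the same-numbered values were 0.058 to 0.221 and the others -0.285 to 0.193. The labels give only a number, and these values do not decide whether it marks a pairing. With the replicate block, 25, 10 and 1 members were called at the WT steps, 25, 9 and 0 at the KO steps, and 0 between KO and WT.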
